A study of Mus musculus with 2 samples.

Results

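RNA from the EGF family of growth factors and receptors was measured in the whole uterus of 2 independent C57BL/6 mice on day 4 of pregnancy, with 1 poly-A RNA sequencing library per animal. The family was taken by gene symbol as 10 of the 22740 genes in the deposited table: the 6 ligands Areg, Ereg, Hbegf, Btc, Tgfa and Egf, and the 4 receptors Egfr, Erbb2, Erbb3 and Erbb4. All 10 symbols were found. Both libraries belong to 1 group, titled WT, with no treatment and no contrast in the labels, so the data give the level of each gene and how far 2 animals differed. Each library is named by its animal, 1 or 2, as numbered in its title. Age, hour of collection and presence of embryos are not given in the sources used here.

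EGF family ligands are made as membrane-anchored precursors and are released by metalloproteases of the ADAM family. They bind receptor tyrosine kinases that work in pairs. Areg, Tgfa and Egf bind the Egfr product, Hbegf, Btc and Ereg products also bind ErbB4, and neuregulins bind ErbB4, those of Nrg1 and Nrg2 also ErbB3. ErbB2 has no known ligand of its own and ErbB3 has a weak kinase, so both act through their partners. In the mouse uterus amphiregulin (Areg) is known as a progesterone-responsive product of the epithelium, and heparin-binding EGF-like growth factor (Hbegf) as an early signal between the epithelium and the attaching blastocyst.

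Egfr was by far the most abundant member, with Erbb2 and Erbb3 next, and Tgfa was the most abundant ligand. Levels are the authors' RPKM (reads scaled to transcript length and library size), which allow levels of different genes to be compared, and are given as mean ± SD over the 2 uteri. At a threshold of 1 RPKM in both uteri, 6 of the 10 members were detected: 3 of the 4 receptors and 3 of the 6 ligands. Over all genes 58.4% passed the same threshold, so the family's count was close to the background. The 4 members under the threshold were Egf, Btc, Ereg and Erbb4. With each library rescaled to a common sum of RPKM (the TPM scale), Egf passed 1 TPM at 1.43 and 1.05 TPM, which made 7 of 10 members, against 63.4% of all genes. The summed level of the receptors was 55.6 RPKM in animal 1 and 53.3 RPKM in animal 2, against 10.6 and 12.6 RPKM for the ligands. The receptor sum was 5.23 times that of these 6 ligands in animal 1 and 4.25 times in animal 2. With the 5 other EGF-type ligand genes added, among them the neuregulins that bind ErbB3, it was 2.79 and 2.34 times the ligand sum.

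**Figure D1:**
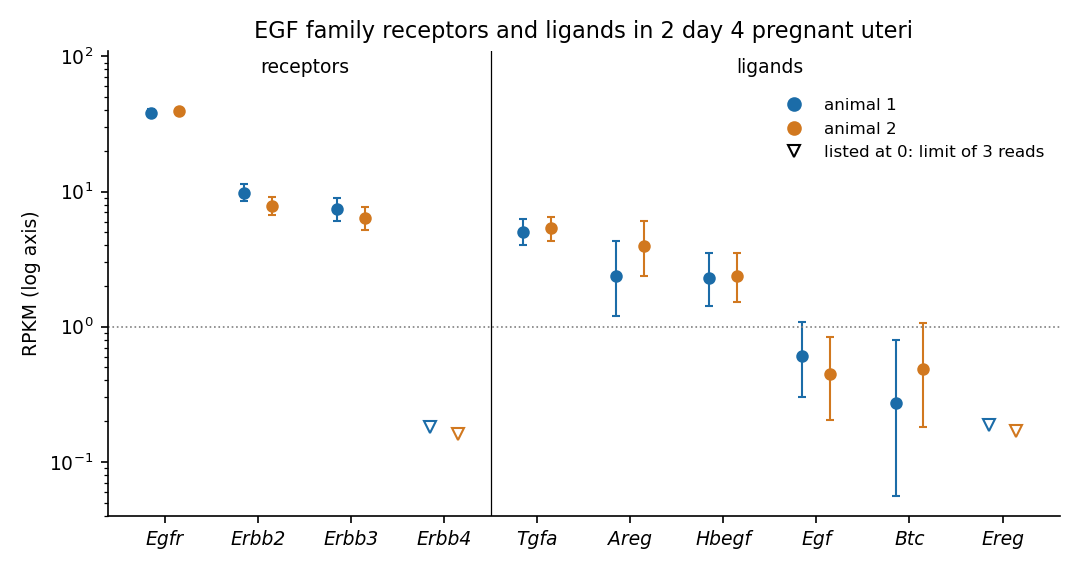
Level of each receptor (left) and ligand (right) in RPKM on a log axis, with a point for each uterus, bars for the exact Poisson 95% interval of its recovered reads, and a dotted line at 1 RPKM. Egfr lies near 39 RPKM in both uteri, Tgfa leads the ligands near 5 RPKM, and open triangles mark where a limit of 3 reads would lie for Erbb4 and Ereg, which are listed at 0.

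The 2 promoter windows printed here are shown because they belong to the member with the highest level, Egfr, and to the ligand whose values were farthest apart between the uteri among members above 1 RPKM, Areg. Each is the 250 bases before the RefSeq start site on mouse build GRCm38.p6, plus strand, at chr11:16751953-16752202 for Egfr and chr5:91139349-91139598 for Areg. Capitals mark matches to 4 motifs searched on both strands: the TATA-box core TATAA, the CCAAT box CCAAT, the GC box GGGCGG and the cAMP response element TGACGTCA.
Egfr: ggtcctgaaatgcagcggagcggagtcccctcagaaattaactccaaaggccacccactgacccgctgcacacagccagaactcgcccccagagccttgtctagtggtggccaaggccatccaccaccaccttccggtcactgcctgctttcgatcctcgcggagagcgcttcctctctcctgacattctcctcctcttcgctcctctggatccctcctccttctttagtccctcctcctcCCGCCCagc
Areg: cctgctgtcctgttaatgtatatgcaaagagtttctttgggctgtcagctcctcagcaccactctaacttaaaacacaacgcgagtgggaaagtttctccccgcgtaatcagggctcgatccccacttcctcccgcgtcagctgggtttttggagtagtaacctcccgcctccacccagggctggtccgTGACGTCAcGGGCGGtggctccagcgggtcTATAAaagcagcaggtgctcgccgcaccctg
The Areg window held a cAMP response element from 61 to 54 bases before the start, a GC box from 52 to 47 and a TATA-box core from 31 to 27, with no overlap between them. The Egfr window held a GC box on the other strand, from 9 to 4 bases before the start, and no TATA-box core. Over all 32851 windows of this length, 1.55% held the cAMP response element, 22.8% the TATA-box core, 32.7% the GC box and 33.8% the CCAAT box. Windows of 7 of the 10 members were in the RefSeq table, and Ereg, Erbb3 and Hbegf were not among them. Of those 7, the Tgfa window held GC boxes starting 126 and 15 bases upstream, the Erbb2 window held a CCAAT box starting 41 bases upstream, and the windows of Egf, Btc and Erbb4 held none of the 4 motifs. The matches describe the letters in these windows, and binding was not measured.

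Egfr, which encodes the receptor for EGF, transforming growth factor alpha and amphiregulin, lay at 38.4 RPKM in animal 1 and 39.1 RPKM in animal 2. The mean of 38.8 ± 0.508 RPKM (SD, n = 2) was above that of 92.8% of all genes, at rank 1647. Egfr (NM_207655) lies on chromosome 11, from 16652206 to 16813910 on the plus strand of mm9, the build to which all gene coordinates here refer. Both uteri gave nearly the same value, and the ratio of animal 2 to animal 1 was 1.02, with an exact 95% interval from 0.933 to 1.11 that covers counting error only. That interval rests on 948 and 1072 reads, found from the RPKM values by taking the nearest annotated transcript length. The ratio of the 2 values by itself requires only multiples of 237 and 268 reads. No annotated length matched exactly, so the Egfr read number is less certain than those of the other members with reads. The reads of Hbegf, Tgfa and Btc likewise rest on an annotated length, which matched exactly. The ratio of their values by itself would allow as few as 7 and 8, 41 and 48, and 1 and 2 reads. For Egfr and these ligands, such small reads would need a length with a fraction of a base, so they are not possible counts. The table has 1 row for Egfr, so full-length receptor transcripts and shorter forms sharing its first exons were not told apart.

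Erbb2, the preferred dimer partner within the family, lay at 9.81 RPKM in animal 1 and 7.85 RPKM in animal 2 on 188 and 167 reads. It was higher in animal 1, with a mean of 8.83 ± 1.39 RPKM (SD, n = 2). The mean of Egfr was 4.39 times as high. Erbb2 (NM_001003817) is also on chromosome 11, from 98273798 to 98299030 on the plus strand. Erbb3, a partner of ErbB2 in neuregulin signalling, lay at 7.40 and 6.37 RPKM on 114 and 109 reads, with a mean of 6.88 ± 0.725 RPKM (SD, n = 2). Its values were likewise higher in animal 1 and lay below both Erbb2 values, by a gap only from 7.85 to 7.40 RPKM. The 95% intervals of the reads of Erbb2 and Erbb3 overlapped in each uterus. Such overlap does not decide their order, and the difference between the 2 genes was not tested directly. Erbb3 (NM_010153) lies on chromosome 10, from 128006424 to 128026557 on the minus strand. Erbb4 (NM_010154, chromosome 1, 68086540 to 69154633, minus strand), the other neuregulin receptor, was listed at 0 in both uteri. A count of 0 would allow up to 0.180 RPKM in animal 1 and 0.162 RPKM in animal 2, taking 3 reads as the limit. The ribosomal protein gene Rpl26, used by cells in general, was also listed at 0 in both uteri, so a listed 0 is not read as absence. In whole tissue, a low level in many cells and a high level in few cells cannot be told apart, and neither can fewer cells of a type and less RNA per cell.

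Within the summed receptor RNA, Egfr made up 69.1% in animal 1 and 73.3% in animal 2. Erbb2 made up 17.6% and 14.7%, and Erbb3 13.3% and 11.9%. The order Egfr, Erbb2, Erbb3 was the same in both animals.

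**Figure D2:**
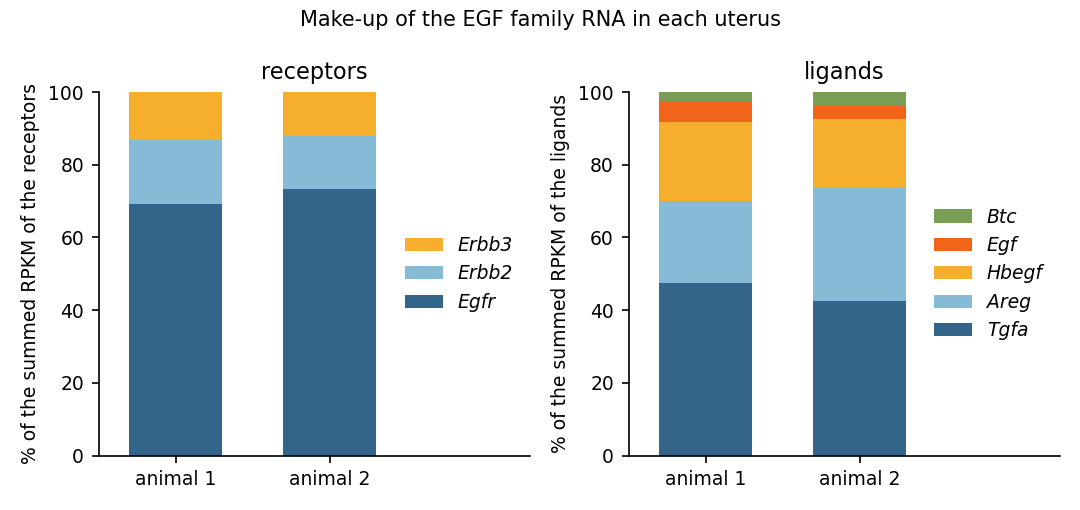
Share of each gene in the summed RPKM of the receptors (left) and of the ligands (right), with 1 stacked bar per uterus. Egfr makes up 69.1% and 73.3% of receptor RNA, and Tgfa 47.6% and 42.5% of ligand RNA; Erbb4 and Ereg are listed at 0 and have no segment.

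Tgfa, which encodes transforming growth factor alpha, lay at 5.06 RPKM in animal 1 and 5.33 RPKM in animal 2 on 82 and 96 reads. They differed little, and the mean of 5.20 ± 0.196 RPKM (SD, n = 2) exceeded that of 56.1% of all genes. Tgfa (NM_031199) is on chromosome 6, from 86145245 to 86225443 on the plus strand. It made up 47.6% of the summed ligand RNA in animal 1 and 42.5% in animal 2. The ratio between the uteri was 1.05, with a 95% interval from 0.777 to 1.43.

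Areg (NM_009704), the amphiregulin gene whose promoter window is printed above, lay at 2.39 RPKM in animal 1 and 3.92 RPKM in animal 2. It was higher in animal 2, with a mean of 3.16 ± 1.08 RPKM (SD, n = 2) and the largest SD among the ligands. The values rest on only 11 and 20 reads, and the ratio of 1.64 had a 95% interval from 0.748 to 3.78. A difference between the animals in either direction is therefore within counting error. Areg made up 22.5% of ligand RNA in animal 1 and 31.2% in animal 2. Of the 4 epithelial markers Epcam, Krt8, Krt18 and Cdh1, all but Cdh1 were also higher in animal 2, and none was at 0. Of all genes averaging 1 RPKM or more, 49.9% were higher in animal 1. The summed level of the epithelial markers was 193 RPKM in animal 1 and 231 RPKM in animal 2. The gland marker Foxa2 lay at 3.07 and 5.19 RPKM on 25 and 47 reads. Of these markers, the exact binomial test described below called only Krt18, with an adjusted p of 7.61e-04. In that test the adjusted p was 0.126 for Epcam, 0.312 for Krt8, 0.761 for Cdh1 and 0.260 for Foxa2. The part of epithelial RNA in the Areg values was not tested.

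Hbegf, whose product binds both the EGF receptor and heparan sulfate, lay at 2.31 RPKM in animal 1 and 2.37 RPKM in animal 2 on 21 and 24 reads. The 2 values were close, with a mean of 2.34 ± 0.0482 RPKM (SD, n = 2) and a ratio of 1.03, though the 95% interval from 0.549 to 1.94 is wide at this depth. Hbegf (NM_010415) is on chromosome 18, from 36664581 to 36675459 on the minus strand. The Hbegf values lay just under the lower Areg value, 2.37 against 2.39 RPKM, and the 95% intervals of the 2 genes overlapped in each uterus.

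The other 3 ligands were under 1 RPKM, Egf and Btc on few reads and Ereg listed at 0. Egf (NM_010113, chromosome 3, 129380493 to 129458240, minus strand), which gives the family its name, lay at 0.603 and 0.445 RPKM on 11 and 9 reads. Btc (NM_007568), encoding betacellulin, lay at 0.272 and 0.490 RPKM on 3 and 6 reads. The Egf and Btc values overlapped, so no order is given between them. Ereg (NM_007950), encoding epiregulin, was listed at 0 in both uteri, and a count of 0 would allow up to 0.189 and 0.170 RPKM. Egf was higher in animal 1 and Btc in animal 2, each within the counting error of its few reads.

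Ordered by mean level, the family ran from Egfr through Erbb2, Erbb3, Tgfa, Areg and Hbegf to Egf and Btc, with Ereg and Erbb4 at 0. The largest steps between neighbours with reads were from Hbegf to Egf, 4.47-fold, and from Egfr to Erbb2, 4.39-fold. The other steps were between 1.28-fold and 1.65-fold. Apart from Egf and Btc, and Ereg and Erbb4, both values of each gene lay above both values of the next. The 95% intervals of the reads separated Egfr from Erbb2 and Hbegf from Egf in each uterus. They overlapped between the neighbours Erbb2 and Erbb3, Erbb3 and Tgfa, Tgfa and Areg, and Areg and Hbegf. The order of neighbours among these 5 genes is therefore less firm than the 2 large steps, though overlap does not test a difference. Among pairs of these 5 genes that are not neighbours, only the intervals of Erbb3 and Areg overlapped, in animal 2.

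Areg, Ereg and Btc are neighbours on chromosome 5 together with Epgn, the gene of the related ligand epigen. Epgn (91456543 to 91464238), Ereg (91503643 to 91522675) and Areg (91568641 to 91577458) lie in this order on the plus strand, with gaps of 39404 and 45965 bases. Btc (91786287 to 91832020) is on the minus strand, 208828 bases beyond Areg, with the table's gene Gm19619 between them. The 4 genes span 375 kb. Their levels differed along the cluster: Epgn lay at 0 and 0.138 RPKM, the latter on 1 read, Ereg was listed at 0, and Areg was the only 1 of the 4 above 1 RPKM in these libraries.

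The next question was whether any member differed between the 2 animals. None of the 6 members averaging 1 RPKM or more was at least 2-fold apart, on the scale of log2(RPKM + 0.1), which understates the change of low genes. Of all 13647 genes at that level, 2.60% were 2-fold apart, so 0 of 6 is near the background. Areg had the largest log2 ratio of animal 2 over animal 1 among the 6 at 0.69, followed in size by Erbb2 at -0.32 and Erbb3 at -0.21. Tgfa, Hbegf and Egfr had ratios of 0.08, 0.04 and 0.03. The 6 members had a median log2 ratio of 0.03 with values on both sides of 0, against 0.0007 over all genes averaging 1 RPKM or more.

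**Figure D3:**
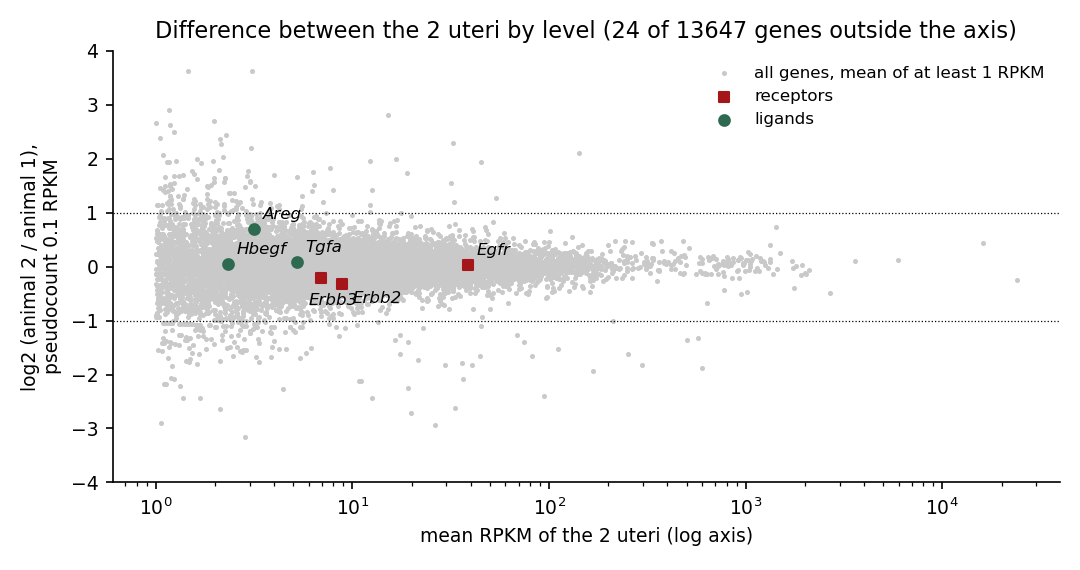
Log2 ratio of animal 2 over animal 1 (pseudocount 0.1 RPKM) against the mean RPKM of the 2 uteri on a log axis, for 13647 genes in grey, of which 24 lie outside the axis, and the 6 members averaging 1 RPKM or more. All 6 lie between the dotted lines at 2-fold, with Areg highest at 0.69 and Erbb2 lowest at -0.32.

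A two-sided exact binomial test on the recovered reads, adjusted over all 15134 genes tested by the Benjamini-Hochberg method, called none of the 8 members with reads. It called 4.71% of the genes tested. Erbb2 alone had an unadjusted p below 0.05, at 0.0381 in the exact test, with an adjusted p of 0.277. Its ratio of 0.800 had a 95% interval from 0.646 to 0.991. The adjusted exact p was 0.625 for Areg and 0.700 for Erbb3, and lay between 0.861 and 1.00 for the other members with reads. This test compares the reads of these 2 libraries and takes no account of variation between animals. A 2-fold difference lay outside the 95% intervals of Egfr, Erbb2, Erbb3 and Tgfa, but inside those of Areg, Egf and Btc, so for these 3 ligands it was not resolvable at this depth. The Hbegf interval ended just short of 2-fold, at 1.94, on the reads that its annotated length gave.

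The wider pathway was described with 6 lists of 63 genes in all, of which 58 were at 1 RPKM or more in both uteri, against 58.4% of all genes. None of the 58 was 2-fold apart, against 2.60% of genes at that level. The exact binomial test called 2 of the 60 with enough reads, against 4.71% of genes tested, so the counts of differing genes are near the background. The first list held the other EGF-type ligands. Nrg4 lay at 4.06 and 6.22 RPKM in animal 1 and animal 2, Nrg2 at 3.41 and 2.08 RPKM, and Nrg1 at 1.86 and 1.79 RPKM. These neuregulin genes lay between 1.79 and 6.22 RPKM, beside 2.31 to 5.33 RPKM for Tgfa, Areg and Hbegf. The products of Nrg1 and Nrg2 bind ErbB3 and ErbB4, and that of Nrg4 binds ErbB4, whose gene is listed at 0 here. Nrg3 was listed at 0, and Epgn held 1 read in all.

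The next lists cover the release of ligands, including its inhibitor Timp3, and their capture at the cell surface. All 10 genes of the shedding list were detected, with a median of 24.3 RPKM, against 11.0 RPKM over all genes averaging 1 RPKM or more. Timp3, an inhibitor of metalloproteases, was the highest at 49.4 and 47.7 RPKM, and Adam12 lay at 37.0 and 36.4 RPKM. Adam8 and Rhbdf2, named after their values were seen, were the lowest at means of 3.03 and 3.96 RPKM. Adam10, the main sheddase of Egf and Btc precursors, lay at 43.5 and 36.8 RPKM on 766 and 719 reads, a log2 ratio of -0.24 that the exact binomial test called with an adjusted p of 0.0289. Of the 10, 8 were higher in animal 1, against 49.9% of all genes averaging 1 RPKM or more. All 6 surface partners that bind ligands or their precursors were detected, led by the tetraspanin gene Cd9 at 91.9 and 101 RPKM, the heparan sulfate proteoglycan gene Gpc1 at 62.6 and 50.4 RPKM and the syndecan gene Sdc4 at 53.9 and 56.6 RPKM. Gpc1 was lower in animal 2 on 853 and 762 reads, with a log2 ratio of -0.31 and an adjusted p of 8.06e-04 in the exact binomial test.

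All 16 genes that relay the receptor signal through Ras and the MAP kinases were detected, with a median of 24.2 RPKM. The adaptor gene Shc1 lay at 53.0 and 50.9 RPKM, and the ERK1 gene Mapk3 at 50.6 and 47.1 RPKM. In this list 14 of 16 genes were higher in animal 1, against 49.9% of all genes averaging 1 RPKM or more, but the ratios were small, with a median log2 ratio of -0.05, and none was called. All 15 inhibitors were detected, with a median of 11.9 RPKM. Errfi1, which encodes a direct inhibitor of the EGF receptor kinase, lay at 52.7 and 61.6 RPKM and was the highest of them, above Egfr itself. Spred1, an inhibitor of the Ras pathway, lay at 29.3 and 31.3 RPKM, and the receptor ubiquitin ligase gene Cbl at 16.8 and 14.5 RPKM. No inhibitor was called. Of the 15, 4 were higher in animal 1, or 5 on the TPM scale, against the same 49.9%, and the median log2 ratio was 0.05.

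Genes that respond to EGF receptor signalling, and to many other signals, were uneven. Of these 11 genes 8 were detected, with a median of 5.58 RPKM. Myc lay at 39.0 and 37.9 RPKM, and Ier3 at 19.9 and 23.7 RPKM. Ier2 had a mean of 18.1 ± 2.72 RPKM (SD, n = 2). Ptgs2, which encodes the inducible cyclooxygenase, lay at 0.378 and 0.170 RPKM on 6 and 3 reads, and Etv4 at 0.893 and 0.302 RPKM on 8 and 3 reads. Fosl1 held 1 read in animal 1 and none in animal 2. Of the 8 genes averaging 1 RPKM or more, 6 were higher in animal 1, against 49.9% of all genes at that level, and none was called by the exact binomial test. Fos, named after its values were seen, had the largest ratio of the 8 and ran the other way, at 3.86 RPKM in animal 1 and 7.30 RPKM in animal 2 on 31 and 65 reads. Its log2 ratio was 0.90, with an adjusted p of 0.0588 in the exact binomial test.

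**Figure D4:**
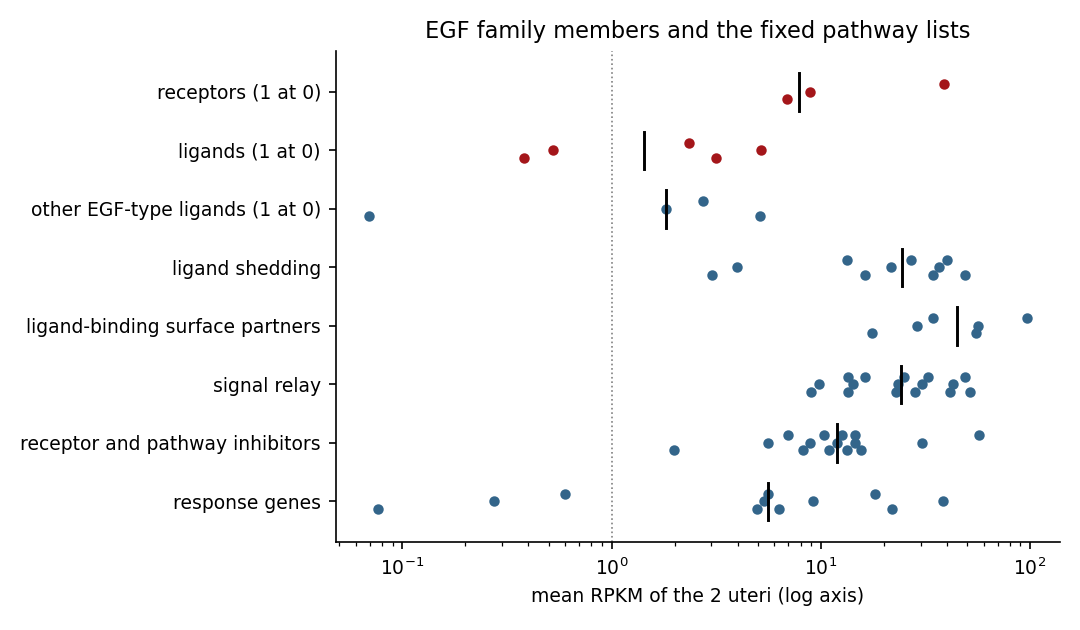
Mean RPKM of the 2 uteri on a log axis for each receptor and ligand (red) and each gene of the 6 pathway lists (blue), with a black bar at the list median and a dotted line at 1 RPKM; genes listed at 0 are counted in the row label. The 5 ligands with reads spread from 0.381 to 5.20 RPKM and, with Ereg at 0, all lie below the medians of the shedding, surface partner and relay lists.

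The depth behind these values was a sum of 3807883 recovered reads for animal 1 and 4231718 for animal 2. The 4 uterine markers Pgr, Esr1, Hoxa10 and Hoxa11 summed to 375 and 351 RPKM, and epithelium, stroma, smooth muscle, endothelium and leukocyte markers were all detected. The exact binomial test called 1 of 4 uterine, 1 of 4 epithelium, 2 of 3 stroma and 2 of 3 smooth muscle markers. It called no endothelium or leukocyte marker. In the stroma list Col1a1 was lower in animal 2, at 1184 and 851 RPKM, and Vim higher, at 447 and 522 RPKM. The part of tissue makeup in the Adam10 and Gpc1 differences was not tested. Of the neighbouring tissues, 2 of 4 ovary and oviduct markers were detected, with sums of 8.35 and 12.7 RPKM and Zp3 at 0. None of the 3 blastocyst markers was, with sums of 1.50 and 0.336 RPKM and Cdx2 at 0. The 2 fat and 2 liver markers held at most 1 read each.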

How the data were processed

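Whole-uterus poly-A RNA from 2 mice was sequenced on a HiSeq2500, 1 library each, per the labels. The authors deposited RPKM values, per the series' design text, in a table of 22740 genes and in an annotated table of 23366 rows, with identical values for all 22740. The submitters' processing notes name TopHat, edgeR and build mm9. Annotation release, strand use and the counting program are not given in the sources used here. Deposited starts were read as counted from 0, since 12380 of 21033 matched genes had an NCBIM37 (mm9) transcript start 1 base later and 781 at the deposited start.

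The RPKM values were used as deposited. Whole reads were recovered because single-exon genes gave the value of 1 read: 95.2% of 525 and 94.5% of 530 values were whole within 0.001. Lengths matched the GENCODE M1 annotation exactly for 13489 genes, including 7 of the 8 members with reads. A nearest length was taken for 2714 genes, 1215 had no annotated length, and 8 gave no whole reads. Intervals are exact (Poisson for levels, Clopper-Pearson for ratios) and reflect counting error alone, as PCR duplicates were not told apart. The exact binomial test needed at least 6 reads in sum and was checked on data with known answers. Python 3.11.15, scipy 1.17.1 and matplotlib 3.10.9 were used.

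Members, lists and alternatives were chosen with earlier results of these data known. Named genes were all members and, of each list, the 3 highest, any 2-fold apart and any under 1 RPKM in both uteri. An item that this rule would name is not reported here. With 2 libraries no gene can be called most like a member. Promoter sequences are from RefSeq (GRCm38.p6), a build kept apart from mm9. Protein sequences were not used here.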

Additional observations from a re-analysis of the deposited data

How the results depend on the processing

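Of 102 alternative values, 99 kept their direction and side of the threshold, or stayed within 1 SD of the mean or 1.5 times the count. Taking either animal alone cannot move a mean of 2 values by 1 SD, so those alternatives carry no information. With reads in place of RPKM, which is not per length, the share of Tgfa among ligands was 63.0% against 45.0%, and that of Egfr among receptors 77.7% against 71.2%. An alternative took the smallest reads that fit the ratio of each gene's 2 values. It gave 430 of 14174 genes called by the exact binomial test in place of 713 of 15134, and no member under either. Counting the other EGF-type ligands as ligands, chosen after seeing the data, lowered the mean ratio of summed receptor to ligand RPKM from 4.74 to 2.56. Rescaling to TPM moved Egf over the detection threshold, for 7 members in place of 6. For the pathway lists, the alternative thresholds of 0.5 and 2 RPKM were chosen after seeing the data. No paired analysis was possible because all libraries form 1 group. Depth limits Areg, Hbegf, Egf and Btc, with at most 24 reads a library.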
